A study of Homo sapiens with 8 samples.

Results

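The miRNAs described here are 10 mature products of a hairpin cluster on the X chromosome that lies within CLCN5, the gene of a chloride and proton exchanger. They are hsa-miR-532-5p, hsa-miR-532-3p, hsa-miR-188-5p, hsa-miR-500a-3p, hsa-miR-362-5p, hsa-miR-362-3p, hsa-miR-501-5p, hsa-miR-501-3p, hsa-miR-660-5p and hsa-miR-502-3p (named below without the human prefix), which are 10 of the 1780 miRNA rows of the count matrix. They were listed by name because they had been seen to lie lower in spheroids than in monolayers in one cell line and not in the other, so their difference between cultures is given here as a description. Where the calls of a fit over all miRNAs are counted for them, nothing is inferred from those calls. MicroRNAs of a cluster are commonly transcribed together as one primary transcript, which is cut into hairpins and then into mature strands from the 5p and 3p arms. A mature strand in an Argonaute protein pairs with target transcripts mainly through its seed, the bases from position 2 to position 8. Members of this cluster have been studied in several tumour types, with reported targets such as RUNX3 for miR-532-5p, CYLD for miR-362-5p and MDM2 for miR-660-5p.

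Small RNA was sequenced from DLD1 and HT29, both established colorectal adenocarcinoma cell lines, after 6 days as a flat monolayer (2D) or as multicellular spheroids (MCS). The 4 groups, DLD1 2D, DLD1 MCS, HT29 2D and HT29 MCS, held 2 libraries each, which the labels call biological replicates, and none of the groups carried a drug or a genetic change. DLD1 was grown in RPMI, with 35000 cells seeded for 2D and 7000 for MCS, and its libraries were built with version 3 of the NEXTflex kit. HT29 was grown in DMEM, with 100000 cells seeded for 2D and 3500 for MCS, and its libraries were built with version 2 of that kit, so cell line, medium and kit version cannot be told apart. Each line stands for 1 tumour, and the spheroids were formed without attachment over agarose and hold no stromal, endothelial or blood cells.

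All 10 miRNAs come from 7 of the 8 hairpins of the cluster, which lie on the plus strand of chrX:49767754-49779291 (GRCh37), a span of 11538 bases inside CLCN5 (chrX:49687206-49863892). The hairpins follow one another as MIR532 (49767754 to 49767844), MIR188 (49768109 to 49768194), MIR500A (49773039 to 49773122), MIR362 (49773572 to 49773636), MIR501 (49774330 to 49774413), MIR500B (49775279 to 49775357), MIR660 (49777849 to 49777945) and MIR502 (49779206 to 49779291). Each hairpin was spanned by 3 annotated CLCN5 transcripts and overlapped no exon of any of them, so all 8 are intronic and run in the direction of the host gene. The largest gap between neighbours, 4844 bases, separates MIR532 and MIR188 from the other 6.

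The mature sequences are shown because likeness between them decides which members could share targets and which could share reads. They were taken from RefSeq (GRCh38.p14 table, 9 of the 10 listed miRNAs matched), run 5′ to 3′, and have the seed in capitals.
miR-532-5p: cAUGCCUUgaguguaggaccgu
miR-532-3p: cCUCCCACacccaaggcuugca
miR-188-5p: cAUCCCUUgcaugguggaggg
miR-500a-5p (same hairpin as miR-500a-3p, not listed): uAAUCCUUgcuaccugggugaga
miR-500a-3p: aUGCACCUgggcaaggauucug
miR-362-5p: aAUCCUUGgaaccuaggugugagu
miR-362-3p: aACACACCuauucaaggauuca
miR-501-5p: aAUCCUUUgucccugggugaga
miR-501-3p: aAUGCACCcgggcaaggauucu
miR-502-3p: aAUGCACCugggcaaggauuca
miR-660-5p is named without a sequence.
The listed miRNAs miR-501-3p and miR-502-3p share the seed AUGCACC, and no other pair among the 9 with a sequence shares one. miR-500a-3p and miR-502-3p have a run of 20 bases in common, augcaccugggcaaggauuc, of the 22 bases in each, so a trimmed read could be counted for either. Of the 105 pairs among the 15 mature miRNAs of the locus that have a sequence, 2 shared a run of at least 15 bases, this one and the pair of miR-500a-5p with miR-500b-5p. A search for exact runs passes over near copies with a mismatch inside. By the sequences shown, miR-501-3p is such a near copy of miR-500a-3p and miR-502-3p, with exact runs of 13 and 12 bases. Values of miR-500a-3p, miR-502-3p, miR-501-3p and miR-500a-5p are therefore uncertain to the extent that reads were divided between near copies.

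The libraries held 10495634 to 26211524 miRNA counts each. Epithelial miRNAs (miR-200b-3p, miR-200c-3p, miR-141-3p and miR-375) summed to 89123 to 104681 CPM (miRNA counts scaled to library size) in DLD1 2D, 160368 to 161799 in DLD1 MCS, 43888 to 136460 in HT29 2D and 52885 to 136868 in HT29 MCS. By contrast, 6 markers of blood, stromal and endothelial cells summed to 96.6 to 129 CPM in DLD1 2D, 138 to 140 in DLD1 MCS, 10.1 to 61.3 in HT29 2D and 28.7 to 194 in HT29 MCS, with miR-451a and miR-145-5p at 0 in some libraries. The intestinal miRNAs miR-192-5p, miR-194-5p and miR-215-5p summed to 2365 to 2537 CPM in DLD1 2D and 8087 to 8744 in DLD1 MCS, and to 21117 to 39565 in HT29 2D and 83512 to 104887 in HT29 MCS. The part of these levels in the results on the cluster was not tested. The HT29 replicate 1 libraries stood apart: miR-10a-5p took 47.3% of the counts in 2D replicate 1 and 38.5% in MCS replicate 1, against 10.6% and 6.57% in the replicate 2 libraries and 15.2% to 19.0% in DLD1. HT29 levels are for that reason given library by library, and fitted HT29 differences that move with 1 library are also given without it.

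As a share of all miRNA counts, the cluster was small in every library and larger in DLD1. The 10 miRNAs made up 0.152% (95% Wilson interval 0.151 to 0.154) and 0.158% (0.157 to 0.160) of the counts in the DLD1 2D libraries, and 0.0875% (0.0861 to 0.0889) and 0.0724% (0.0712 to 0.0736) in the DLD1 MCS libraries. The DLD1 cultures did not overlap, at group means of 0.155% ± 0.00416 (2D) and 0.0799% ± 0.0107 (MCS), each as SD over n = 2. Fewer cells with the cluster and less of it per cell cannot be told apart in such bulk samples. In HT29 the share was 0.0265% (0.0256 to 0.0275) and 0.0293% (0.0286 to 0.0300) for 2D, and 0.0334% (0.0323 to 0.0345) and 0.0444% (0.0434 to 0.0454) for MCS. The HT29 shares thus lay in the opposite order, with both MCS libraries above both 2D libraries, at means of 0.0279% ± 0.00196 and 0.0389% ± 0.00778 (SD, n = 2). The order of the HT29 libraries did not hold once the 10 most abundant miRNAs were left out of the total, where the shares were 0.188% and 0.0915% in 2D and 0.174% and 0.123% in MCS. In DLD1 it held, at 0.468% for both 2D libraries against 0.236% and 0.212% for MCS. The intervals cover counting error only, and an exact test of 2 against 2 libraries cannot go below p = 0.333.

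For single miRNAs, CPM were adjusted by upper quartile factors within each cell line (normalized CPM), and miRNAs averaging 10 CPM or more over the 4 libraries of a line were fitted with edgeR's quasi-likelihood test. A miRNA counted as called when its fitted difference was at least 1.5-fold and its Benjamini-Hochberg adjusted p over all tested miRNAs was under 0.05. In DLD1, 346 miRNAs were tested and 143 were called, 40 lower (11.6%) and 103 higher (29.8%) in MCS. This split depended on the scaling: with TMM factors 62 were lower and 76 higher, with DESeq2's size factors in edgeR 50 and 89, with library totals 83 and 60, with upper quartiles over the tested miRNAs 93 and 49, and in DESeq2 itself 65 and 71.

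Against that background, all 10 cluster miRNAs had both DLD1 MCS libraries below both DLD1 2D libraries, a pattern that 25.4% of the tested miRNAs had (45.4% had the reverse). Of the 10, 9 passed the filter on low values and 4 of the 9 were called lower: miR-500a-3p, miR-362-5p, miR-501-5p and miR-501-3p. The members were chosen on this contrast, so nothing is read from these counts beyond their description. The fitted differences of the 9 ran from −1.19 to −0.43 on the log2 scale, with a median of −0.71, whereas the median over all 346 tested miRNAs was 0.23 and 38.7% of them lay below 0. In DLD1 a change of scaling shifts all fitted differences by nearly the same amount. The median of the members minus that of all tested miRNAs, −0.95 to −0.94 under all 5 scalings, could therefore hardly move and is no check. The number of members called moved from 4 to 8 with TMM factors and 7 with DESeq2's size factors in edgeR. It was 9 with library totals and 9 with upper quartiles over the tested miRNAs. A fit of all 8 libraries, which shares 1 estimate of the spread over both lines, called 0 of 7 members and 27 of 354 miRNAs in DLD1, so the calls named for single members belong to the fit within DLD1. miR-532-3p and miR-362-3p passed the filter with MCS means of 9.73 and 9.74 normalized CPM.

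**Figure D1:**
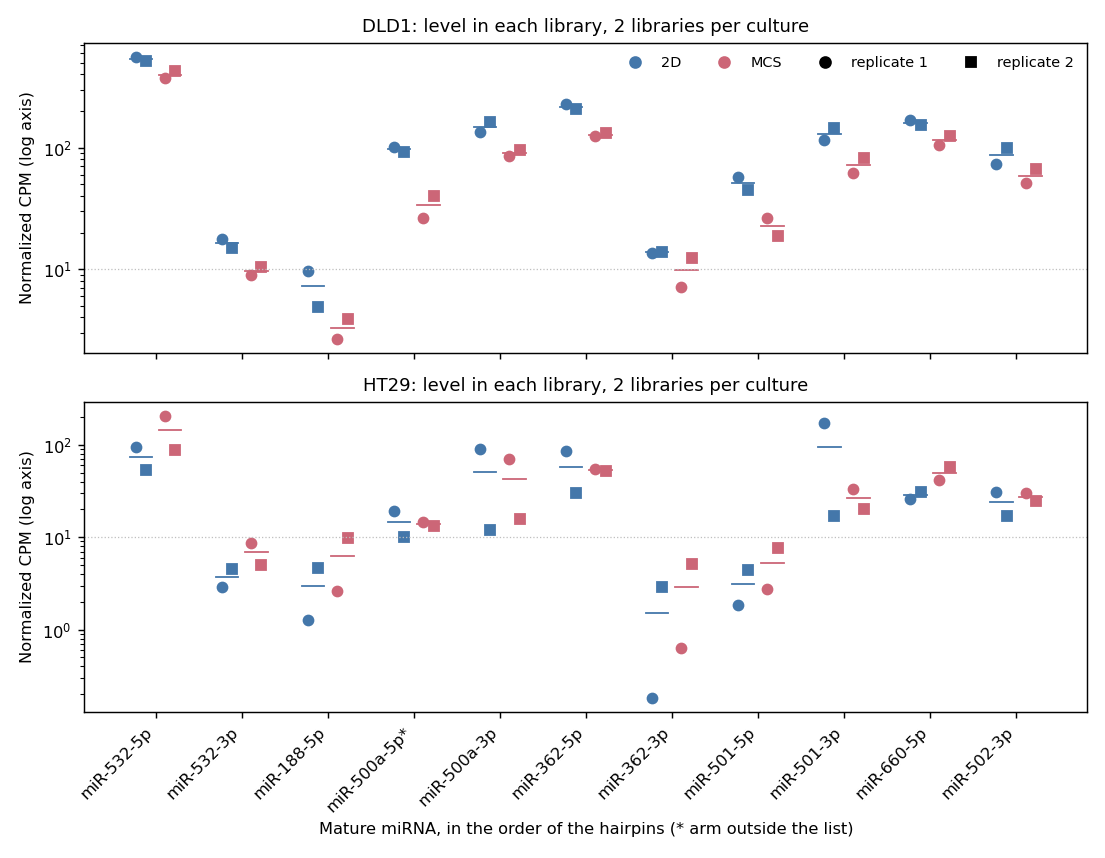
Normalized CPM (log axis) of the 10 listed miRNAs and miR-500a-5p (asterisk) in each library of DLD1 (upper panel) and HT29 (lower panel), with 2D in blue, MCS in red, circles for replicate 1, squares for replicate 2 and a line at the mean of each culture. In DLD1 every miRNA has both MCS points under both 2D points, whereas in HT29 only miR-532-3p and miR-660-5p have both MCS points above both 2D points and the other 9 overlap.

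In DLD1, the MIR532 hairpin gave the most abundant miRNA of the locus. miR-532-5p stood at 559 and 511 normalized CPM in 2D and at 371 and 425 in MCS. Its fitted log2 difference was −0.43 (SE 0.23, 95% interval −0.88 to 0.03), the smallest of the 9. The strand from the other arm, miR-532-3p, stood at 17.8 and 14.8 normalized CPM in 2D and at 8.98 and 10.5 in MCS, a log2 difference of −0.75 (SE 0.35, interval −1.44 to −0.06). Neither strand was called, and in both the 2D libraries were the high ones.

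The neighbouring hairpin MIR188 gave few counts. miR-188-5p stood at 9.58 and 4.84 normalized CPM in DLD1 2D and at 2.67 and 3.87 in DLD1 MCS, from 168, 144, 50 and 59 counts. With a mean of 5.48 CPM it was not tested, and the gap between its nearest 2D and MCS libraries was smaller than the gap between its own 2D libraries.

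Both arms of MIR362 were lower in DLD1 MCS, the 5p arm with less spread. miR-362-5p stood at 226 and 207 normalized CPM in 2D and at 125 and 131 in MCS, with a log2 difference of −0.76 (SE 0.25, interval −1.25 to −0.27) that met the criteria. miR-362-3p stood at 13.5 and 14.0 normalized CPM in 2D and at 7.16 and 12.3 in MCS, with a log2 difference of −0.50 (SE 0.35, interval −1.19 to 0.20). The MCS replicate 2 library of miR-362-3p lay close to the 2D libraries, and this miRNA was not called.

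Both strands of MIR501 had the largest fitted differences of the listed miRNAs, and miR-500a-3p lay at the median. miR-501-5p stood at 57.2 and 45.2 normalized CPM in DLD1 2D and at 26.3 and 18.6 in MCS. Its log2 difference of −1.19 (SE 0.32, interval −1.81 to −0.56) was the largest among the listed miRNAs. From the other arm of the same hairpin, miR-501-3p stood at 116 and 145 normalized CPM in 2D and at 62.2 and 81.4 in MCS, a log2 difference of −0.86 (SE 0.26, interval −1.38 to −0.35). Both strands of MIR501 met the criteria. miR-500a-3p stood at 134 and 163 normalized CPM in 2D and at 84.8 and 96.3 in MCS, a log2 difference of −0.71 (SE 0.25, interval −1.21 to −0.22), and also met them. It was no longer called without DLD1 2D replicate 2.

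The last 2 hairpins of the locus, MIR660 and MIR502, showed smaller differences. miR-660-5p stood at 167 and 152 normalized CPM in DLD1 2D and at 106 and 124 in MCS, a log2 difference of −0.47 (SE 0.25, interval −0.96 to 0.02). miR-502-3p stood at 73.9 and 98.6 in 2D and at 50.9 and 66.6 in MCS, a log2 difference of −0.56 (SE 0.28, interval −1.10 to −0.01). Neither was called, although miR-502-3p was without DLD1 2D replicate 1, as miR-532-5p was without DLD1 MCS replicate 2.

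The strands of the locus that were not listed had 5 rows in the matrix. miR-500a-5p, which the rule did not name, stood at 101 and 92.4 normalized CPM in DLD1 2D and at 26.5 and 40.3 in MCS, a log2 difference of −1.54 (SE 0.29) that was larger in size than that of any listed miRNA and met the criteria. miR-502-5p (10.0 and 7.83 in 2D, 5.66 and 2.62 in MCS) and miR-500b-3p (1.71 and 3.23 in 2D, 0.267 and 0 in MCS) also had both MCS libraries lower. miR-188-3p and miR-660-3p, at 3.47 normalized CPM or less in every DLD1 library, overlapped between the cultures. miR-500b-5p was not analysed here.

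With upper quartile factors, the fitted culture differences of the members in HT29 had no common direction. The same fit tested 301 miRNAs and called 0 of them (0% in either direction), with 12 at an unadjusted p under 0.05 and 12 called by DESeq2. The biological coefficient of variation in that fit was 0.521 against 0.193 in DLD1, and the 95% interval of every tested member spanned 0. Of the 10 listed miRNAs, 6 passed the filter, and 0 of the 6 were called or reached an unadjusted p under 0.05 in that fit. Of these 6, 3 had fitted differences below 0 and 3 above 0, from −1.82 to 0.97 with a median of 0.04, beside a median of 0.03 over all tested miRNAs. Under other scalings the number below 0 was 3 with TMM or DESeq2's size factors, 1 with library totals and 4 with upper quartiles over the tested miRNAs.

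The 3 HT29 members below 0 had 2D replicates that differed, in normalized CPM, by more than their culture means. miR-501-3p stood at 173 and 16.9 normalized CPM in 2D and at 33.3 and 20.3 in MCS, so that 1 high library, 2D replicate 1, gave it a log2 difference of −1.82 (SE 1.14), which was 0.66 without that library. miR-500a-3p stood at 90.7 and 12.1 in 2D and at 70.4 and 15.8 in MCS, a log2 difference of −0.25 (SE 1.18), with both replicate 1 libraries high and both replicate 2 libraries low. It was 1.82 without 2D replicate 1 and −1.73 without MCS replicate 1. miR-362-5p stood at 85.5 and 29.8 in 2D and at 54.5 and 51.8 in MCS, a log2 difference of −0.12 (SE 0.66), which was 0.83 without 2D replicate 1. The MCS libraries of miR-362-5p lay between its 2D libraries on this scale, which rests on upper quartile factors of 0.522 and 1.66 for 2D. By library totals miR-362-5p stood at 44.7 and 49.5 CPM in 2D and at 40.4 and 80.5 in MCS, a log2 difference of 0.36.

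On the other side of 0 were 3 further members. miR-532-5p stood at 95.8 and 53.3 normalized CPM in HT29 2D and at 205 and 87.1 in MCS, a log2 difference of 0.97 (SE 0.66, interval −0.73 to 2.68), with MCS replicate 2 below 2D replicate 1. Without MCS replicate 1 it was 0.20, and by library totals, at 50.0 and 88.4 CPM in 2D against 152 and 136 in MCS, its cultures did not overlap. miR-660-5p stood at 25.7 and 31.1 in 2D and at 41.5 and 58.1 in MCS, a log2 difference of 0.81 (SE 0.47, interval −0.40 to 2.02). It was the only tested member whose HT29 MCS libraries both lay above both 2D libraries, a pattern that 17.9% of the 301 tested miRNAs had (10.6% had the reverse), and by library totals its cultures overlapped. miR-502-3p stood at 31.2 and 16.8 in 2D and at 30.4 and 24.4 in MCS, a log2 difference of 0.19 (SE 0.51, −0.27 without 2D replicate 2 and 0.69 without 2D replicate 1), with overlapping cultures. Its 2D replicates too differed by more than its culture means of 24.0 (2D) and 27.4 (MCS).

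The remaining 4 members stayed below a mean of 10 CPM in HT29. miR-532-3p stood at 2.92 and 4.55 normalized CPM in 2D and at 8.66 and 5.01 in MCS, without overlap. Counts of the other 3 were smaller still in the replicate 1 libraries, where 2D and MCS gave 7 and 21 counts of miR-188-5p, 1 and 5 of miR-362-3p and 10 and 22 of miR-501-5p. In the replicate 2 libraries these 3 had 125 to 264 counts, and their cultures overlapped in normalized CPM, although the ratio of MCS to 2D was above 1 in both replicate numbers for each. The unlisted miR-500a-5p stood at 19.0 and 9.97 in 2D and at 14.4 and 13.3 in MCS, a log2 difference of −0.05 (SE 0.50).

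By replicate number, all members had the same direction in HT29 replicate 2 and not in replicate 1. In replicate 2 the ratio of MCS to 2D was above 1 for all 10 listed miRNAs, from 1.10 for miR-532-3p to 2.15 for miR-188-5p with a median of 1.69, while 60.8% of the tested miRNAs had a ratio above 1. In replicate 1 it was above 1 for 6 of 10, from 0.193 for miR-501-3p to 3.44 for miR-362-3p, beside 46.5% of the tested miRNAs. By library totals it was above 1 for 8 of 10 in replicate 1 and 10 of 10 in replicate 2, beside 74.4% and 54.8% of the tested miRNAs. DLD1 had 0 of 10 above 1 in either number, from 0.279 to 0.688 in replicate 1 and from 0.412 to 0.883 in replicate 2, beside 54.0% and 69.1% of the tested miRNAs. The labels tie no same-numbered cultures to each other, so these ratios compare single libraries only. The median over the 6 tested HT29 members was 0.76 without 2D replicate 1, −0.52 without 2D replicate 2, −0.09 without MCS replicate 1 and 0.38 without MCS replicate 2, and it was 0.62 in the replicate 2 libraries alone.

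**Figure D2:**
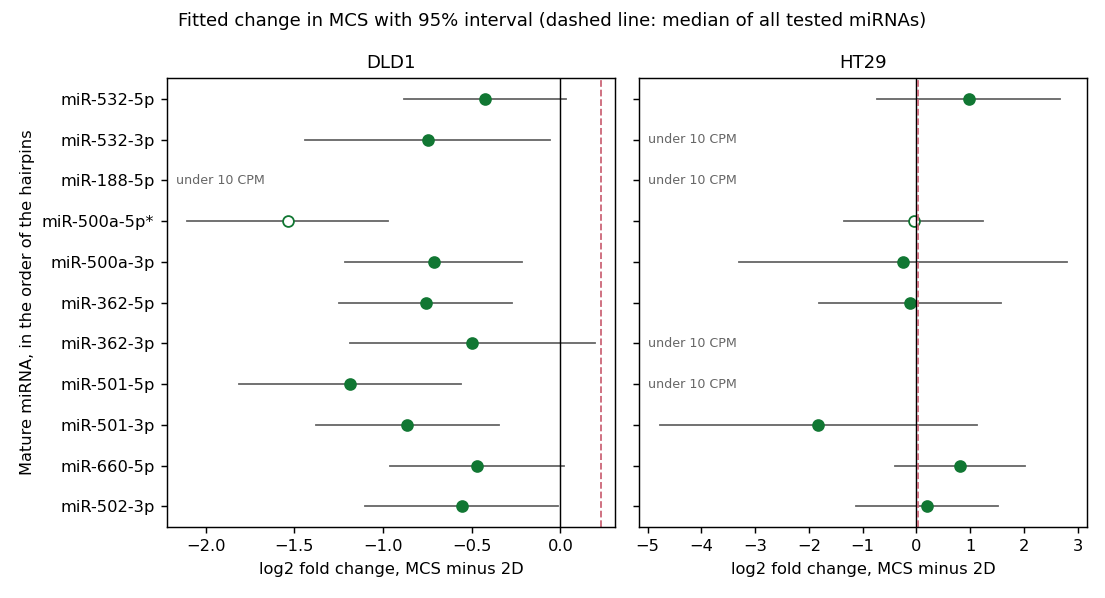
Fitted log2 difference of MCS minus 2D (points) with its 95% interval (lines) for each listed miRNA and the unlisted miR-500a-5p (open circle) in DLD1 and HT29, each panel with its own horizontal scale and a dashed line at the median of all tested miRNAs. All DLD1 points lie left of 0, between −1.54 and −0.43, whereas every HT29 interval spans 0 and the points run from −1.82 to 0.97.

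The make-up of the cluster counts was steadier in DLD1 than in HT29. In DLD1, miR-532-5p supplied 37.7% to 43.9% of the counts of the 10 miRNAs, and over all 10 the highest share of a miRNA divided by its lowest share over the 4 libraries had a median of 1.29 (1.14 to 2.20). In HT29 the same quotient had a median of 4.25 (1.5 to 49.7). Much of it came from HT29 2D replicate 1, in which miR-501-3p supplied 34.0% of the cluster counts (95% Wilson interval 32.3 to 35.8), against 9.56% (8.92 to 10.2), 7.39% (6.58 to 8.30) and 7.12% (6.57 to 7.72) in the other HT29 libraries. miR-532-5p was second there with 18.9% (17.4 to 20.4) and led in the other 3 with 30.2% to 45.6%. miR-660-5p supplied 5.06% and 9.24% in the HT29 replicate 1 libraries and 17.6% and 20.4% in the replicate 2 libraries, and in DLD1 11.2% to 12.8%. The part of the miR-10a-5p excess in the replicate 1 libraries in this difference was not tested.

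**Figure D3:**
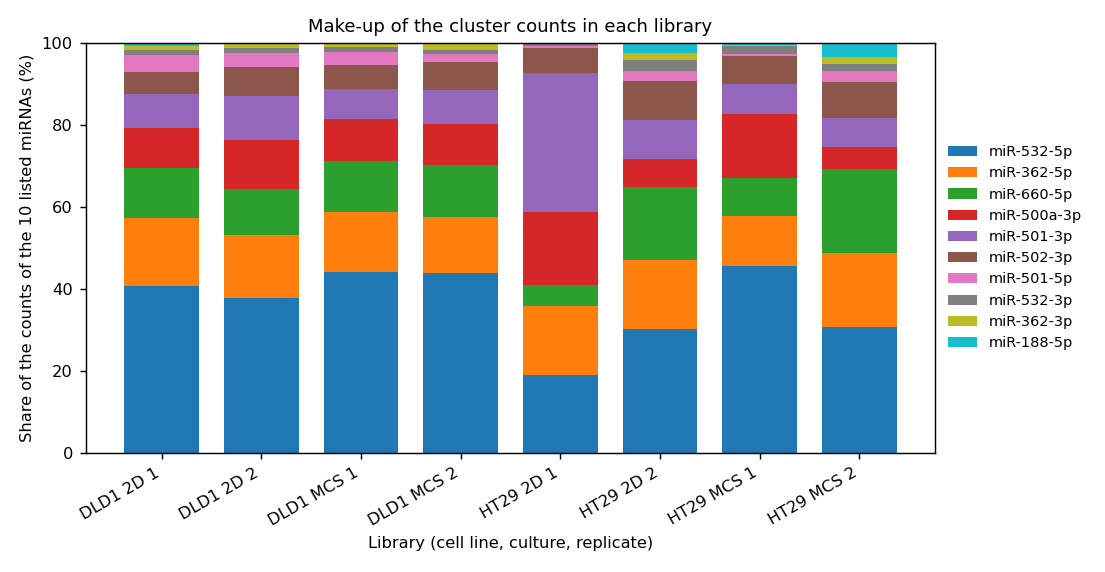
Stacked bars of the share (%) of each listed miRNA in the summed counts of the 10 listed miRNAs, 1 bar per library. The 4 DLD1 bars are alike, with miR-532-5p at 37.7% to 43.9%, whereas HT29 2D replicate 1 stands out with 34.0% miR-501-3p.

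A contrast the list was not chosen on is the level in HT29 against DLD1, averaged over both cultures and fitted over all 8 libraries with 1 scaling. Here 354 miRNAs were tested and 251 called, 135 lower (38.1%) and 116 higher (32.8%) in HT29, with 154 lower and 71 higher by library totals. Of the listed miRNAs, 7 passed the filter. One of them, miR-501-5p, passed only through DLD1 and averaged 5.59 CPM within HT29, so its direction was set by the filter and its values are a description. The other 6 had differences below 0, for miR-501-3p not under every alternative, beside 53.7% of all tested miRNAs, and 2 of the 6 were called lower, a share near that of all tested miRNAs. With 10 CPM required in every library, 2 of 6 listed miRNAs and 56 of 202 miRNAs were called lower. The number of members called depended on the scaling and on HT29 2D replicate 1, as given below. Cell line, medium and kit version cannot be told apart in these differences.

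For miR-501-5p, miR-660-5p and miR-532-5p, the HT29 libraries were all below the DLD1 libraries, as they were for 34.7% of the tested miRNAs. miR-501-5p stood at 13.5 to 43.2 normalized CPM in the 4 DLD1 libraries and at 2.40 to 9.72 in the 4 HT29 libraries, 4.77 times lower (log2 difference −2.25, SE 0.42). miR-660-5p averaged 106 ± 20.8 in DLD1 and 50.6 ± 17.2 in HT29 (SD, n = 4), 2.12 times lower (−1.09, SE 0.23, edgeR adjusted p = 0.00400), and with TMM factors it was no longer called (adjusted p = 0.112). miR-532-5p stood at 359 ± 64.2 in DLD1 and at 143 ± 85.5 in HT29 (SD, n = 4), 2.61 times lower (−1.38, SE 0.34, edgeR adjusted p = 0.00779). All of these levels were scaled over the 8 libraries and differ from those within a line.

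The other 4 overlapped between the lines and were not called in the main fit. The log2 difference was −0.83 (SE 0.34) for miR-362-5p, −0.72 (SE 0.29) for miR-502-3p, −0.55 (SE 0.67, interval −2.11 to 1.02) for miR-500a-3p and −0.19 (SE 0.62, interval −1.64 to 1.27) for miR-501-3p. The adjusted p-values from edgeR were 0.0608, 0.0573, 0.482 and 0.802. The high value of miR-501-3p in HT29 2D replicate 1, 227 on this scale, lay above the highest DLD1 library at 115, whereas the other HT29 libraries stood at 22.4 to 43.3 and so below the lowest DLD1 library at 50.1. The difference of miR-501-3p was above 0 without HT29 2D replicate 2 (0.22) and in DESeq2 (0.0354). Without HT29 2D replicate 1, the log2 difference was −1.29 for miR-362-5p, −0.95 for miR-502-3p, −1.56 for miR-500a-3p and −1.41 for miR-501-3p. Without both HT29 replicate 1 libraries, it was −1.30, −1.03, −2.29 and −1.60 in the same order. With library totals all 7 tested members were called lower, beside 154 of 354 miRNAs. With upper quartiles over the tested miRNAs, miR-362-5p and miR-502-3p were called lower too, beside 169 of 354 miRNAs. Unlisted miR-500a-5p was lower in HT29 as well (−1.25, SE 0.28, edgeR adjusted p = 0.00539).

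The ratio of the arms within a hairpin needs no scaling between libraries and was compared as log2 of 5p over 3p counts, with 0.5 added to each. The 5p strand was the more abundant in all 8 libraries for MIR532 (3.55 to 5.37), MIR362 (3.34 to 8.29) and MIR660 (5.03 to 8.14), and the 3p strand for MIR500A (−2.28 to −0.25), MIR501 (−6.50 to −1.01) and MIR502 (−4.72 to −2.88). In DLD1, the ratio for MIR188 was 5.63 ± 2.35, and it was 0.73 ± 0.99 in HT29 (SD, n = 4), a difference of −4.89 without overlap. The exact permutation test, 2-sided with libraries exchanged within a culture, gave p = 0.0556 for MIR188, which is the smallest it can give, and 0.389 after adjustment over the 7 hairpins. These ratios rest on 7, 0, 6 and 0 counts of miR-188-3p in the DLD1 libraries and 10, 94, 15 and 72 in the HT29 libraries.

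For the other 6 hairpins the libraries of the lines overlapped, and the difference of HT29 minus DLD1 was smaller in size. It was −0.89 for MIR532 (exact permutation p = 0.111), −1.83 for MIR501 (p = 0.167), −0.65 for MIR502 (p = 0.333), 1.46 for MIR362 (p = 0.5), −0.40 for MIR660 (p = 0.611) and −0.23 for MIR500A (p = 0.722), with adjusted values of 0.389 to 0.722. In HT29 the replicates differed most. MIR501 stood at −6.50 and −3.56 in the replicate 1 libraries and at −1.92 and −1.40 in the replicate 2 libraries, MIR362 at 8.29 and 6.30 against 3.37 and 3.34, and MIR500A at −2.25 and −2.28 against −0.28 and −0.25, each in the order 2D and MCS. Without HT29 2D replicate 1 the difference between the lines was −0.78 for MIR501, 0.47 for MIR362 and −1.09 for MIR660. For MIR532 only that library (4.99) reached into the DLD1 range (4.97 to 5.37), and without it the difference was −1.12. The MIR362 ratios of HT29 replicate 1 rest on 1 and 5 counts of miR-362-3p.

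**Figure D4:**
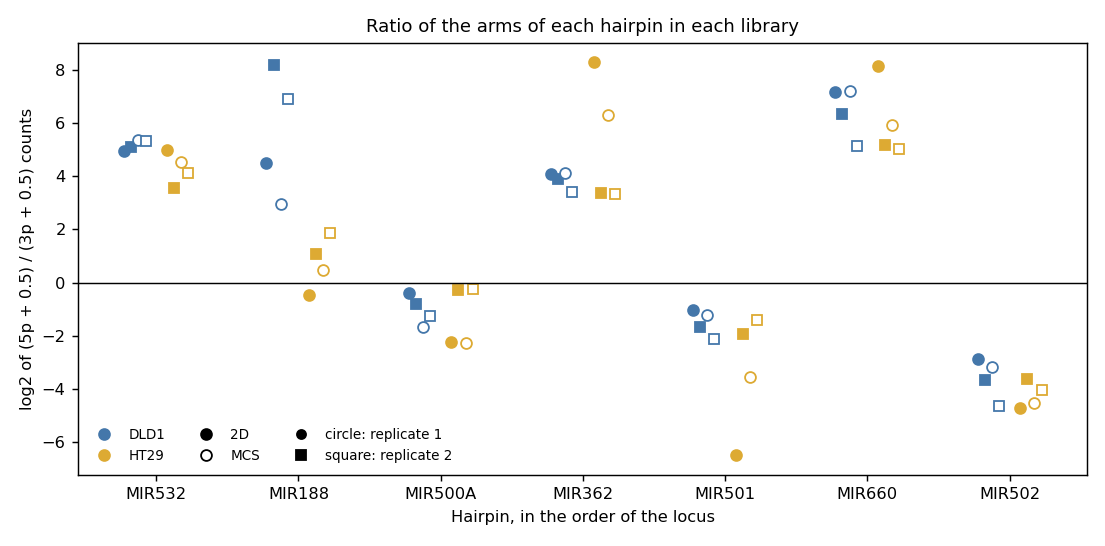
Log2 of 5p over 3p counts (0.5 added to each) for the 7 hairpins with both arms counted, in each library of DLD1 (blue) and HT29 (yellow), filled for 2D, open for MCS, circles for replicate 1 and squares for replicate 2. MIR188 is the hairpin whose HT29 points (−0.49 to 1.87) lie under all DLD1 points (2.96 to 8.17), and in HT29 the circles and squares of MIR362, MIR501 and MIR500A lie apart.

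Set beside other hairpin clusters, the locus was among the lowest in DLD1, and in HT29 its place depended on single libraries. Clusters were taken as hairpins on the same strand with neighbours at most 10 kb apart and at least 3 mature miRNAs tested in both lines, which left 23, and a mature miRNA made at more than 1 locus was counted in each. The CLCN5 locus entered with 7 mature miRNAs, miR-500a-5p among them, and 7 of 7 lay below 0 in DLD1 with a median of −0.71. Only MIR221 with MIR222, miRNAs known to target the cell cycle inhibitor p27, had a lower median, at −0.90 with 4 of 4 below 0. These 2 clusters had all of their miRNAs below 0 in DLD1, as 2 clusters did with TMM or DESeq2's size factors, 4 with library totals and 5 with upper quartiles over the tested miRNAs.

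Most other clusters had medians above 0 in DLD1, the highest being MIR192 with MIR194-2, intestinal epithelial miRNAs, at 2.13, and MIR23B, MIR27B and MIR24-1 at 1.65. In all, 4 of 23 medians lay below 0, and with other scalings 5 with DESeq2's size factors, 8 with TMM factors, 9 with library totals and 11 with upper quartiles over the tested miRNAs. The CLCN5 locus was second from the lowest under each, but scaling shifts all DLD1 medians nearly alike and so hardly changes their order. Because the locus was listed as low in this contrast, its place in DLD1 is a description. In HT29, 11 of 23 lay below 0. There the CLCN5 locus had a median of −0.05 with 4 of 7 below 0, and it was 11th from the lowest, or 9th to 16th with the other scalings. It was 18th without 2D replicate 1, 5th without 2D replicate 2, 7th without MCS replicate 1 and 20th without MCS replicate 2. The clusters at the ends of the HT29 order were MIR25, MIR93 and MIR106B at −0.32 and again MIR192 with MIR194-2 at 1.47.

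**Figure D5:**
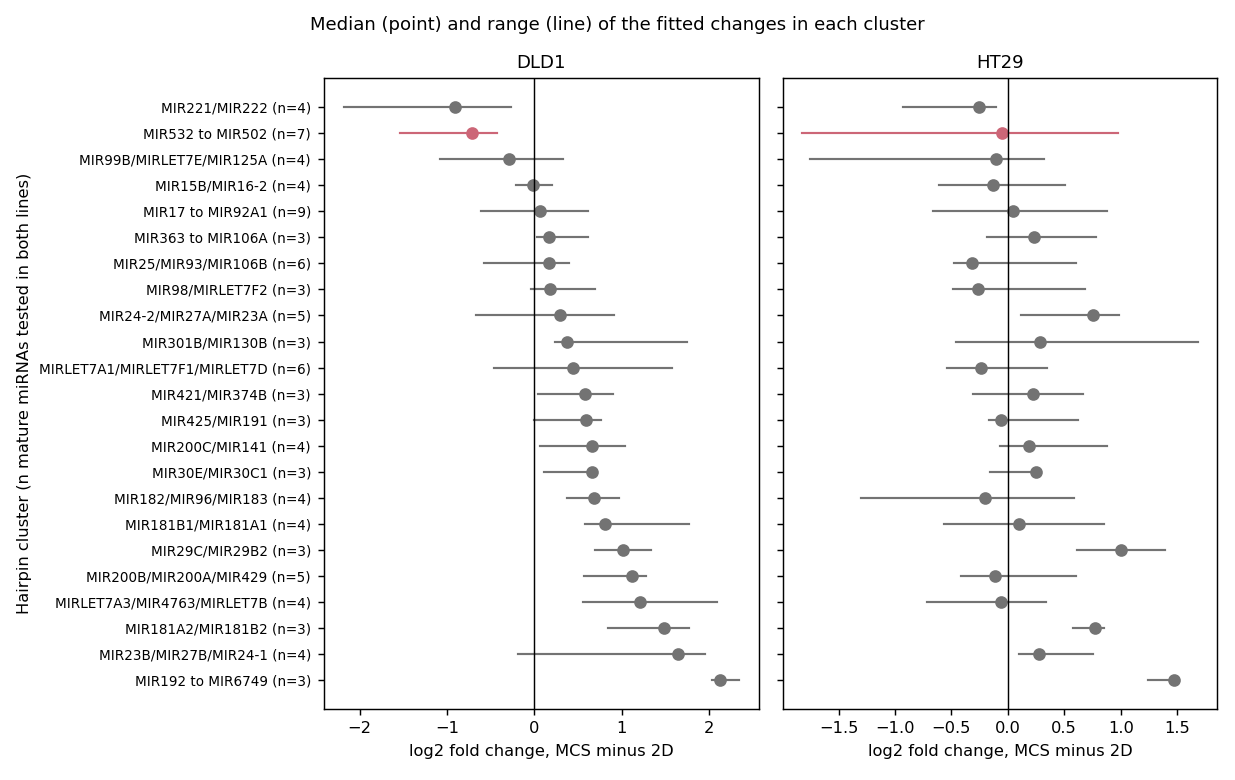
Median (point) and range (line) of the fitted log2 differences of MCS minus 2D over the mature miRNAs of each of 23 hairpin clusters, with n the number of miRNAs, in DLD1 (left, which sets the order) and HT29 (right, with its own scale). The CLCN5 locus (red) has a median of −0.71 in DLD1, under all but MIR221 with MIR222, and −0.05 in HT29, where its range is the widest of the 23.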

How the data were processed

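The 8 small RNA libraries were made from 2 μg of total RNA each. Per the labels and the study's methods, the authors trimmed adapters and random adapter bases, filtered the reads, mapped them to GRCh37 and then to annotated mature strands, and deposited the unnormalized counts of each strand. The submitters' processing notes name CASAVA 1.8.3, cutadapt 1.11, Bowtie2 2.1.0 and edgeR 3.4.2. How reads that match several miRNAs were counted is not given in the sources used here. The series matrix held the values of the single-library files (12572 compared, 0 differed). Its 15 rows that name no miRNA (0.00988% of the counts of HT29 2D replicate 2, and 0 elsewhere) were left out.

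Each line was fitted with edgeR 4.0.16 (R 4.3.3) by the quasi-likelihood test on culture, with upper quartile factors over miRNAs with at least 1 count, a mean of 10 CPM or more, a fold of 1.5 or more and an adjusted p (Benjamini-Hochberg) under 0.05. The study's own thresholds were kept. The Fisher exact test it names was replaced by the quasi-likelihood test, which takes account of replicate spread. HT29 against DLD1 was fitted over all 8 libraries in the 4 groups. Permutation tests went through every allowed arrangement of the libraries. Their adjusted p-values and the Wilson intervals used scipy 1.17.1. Alternatives were DESeq2 1.42.0, 4 other scalings, 2 filters, a replicate block, all libraries in 1 fit, and leaving out each library. Hairpins were placed with GENCODE release 44 on GRCh37. Neighbour order of clusters came from RefSeq GRCh38.p14.

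Every listed miRNA is described, with the other strands of its hairpins. For likeness, the 5 miRNAs of highest correlation with the cluster profile were to be named. The members and lists were chosen with earlier results of these data known. Totals of 10495634 to 26211524 counts per library set the counting precision, and with 2 libraries per group p-values rest on few degrees of freedom.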

Additional observations from a re-analysis of the deposited data

Results flagged for a closer look

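Among the members tested in both lines, miR-660-5p was the one whose cultures lay in opposite orders without overlap: both MCS libraries were above both 2D libraries in HT29 (log2 difference 0.81) and below them in DLD1 (−0.47). The difference between the lines was 1.28 on the log2 scale and was not tested, since the members were chosen on this contrast. This depended on the scaling: by library totals the HT29 libraries of miR-660-5p overlapped, and miR-532-5p was the member with opposite orders. miR-532-3p, under 10 CPM in HT29, had the opposite orders in normalized CPM, and also overlapped in HT29 by library totals. No group held the 4 libraries needed to look for single outlying ones.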

How the results depend on the processing

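In DLD1 all member values of MCS minus 2D stayed below 0 under every alternative run. The 4 members called became 8 with TMM factors, 7 with DESeq2's size factors in edgeR, 9 with library totals, 9 with upper quartiles over the tested miRNAs, 8 in DESeq2 and 0 with all 8 libraries in 1 fit (7 tested), and 3 to 5 with a library left out. The all-library fit shares 1 spread over both lines and called 27 of 354 miRNAs in DLD1. Their median of −0.71 moved to −1.09 with library totals and −1.16 with upper quartiles over the tested miRNAs, and was −0.87 to −0.68 with a library left out. The 143 miRNAs called in DLD1 became 92 to 124, with 92 without DLD1 2D replicate 2. Relative to the main scaling, the DLD1 differences moved by −0.46 to −0.12, those of HT29 by −0.24 to 0.13 and those between lines by −0.60 to 0.31 (medians).

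In HT29 the 0 calls over all miRNAs became 12 in DESeq2, 15 with no filter and 0 to 2 with a library left out (1 without 2D replicate 1, 2 without 2D replicate 2). The median of the members ran from −0.52 to 0.76 with a library left out and was −0.18 with upper quartiles over the tested miRNAs, −0.03 in DESeq2, 0.41 with library totals and 0.74 with no filter. The replicate 2 libraries alone, an alternative chosen after seeing the data, gave 0.62.

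Replicate numbers mark no shared day or culture in the labels. With a replicate block, HT29 calls rose from 0 to 47 and members called from 0 to 2 (miR-501-3p lower, miR-532-5p higher). In DLD1 the block gave 139 calls and 4 members, and between the lines 259 and 4. Deviations of same-numbered libraries correlated at 0.79 in HT29 and 0.32 in DLD1.

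Between the lines, the 3 members called (miR-501-5p included) became 2 with TMM factors, 2 of 6 with 10 CPM in every library and 7 with library totals (154 of 354 miRNAs lower). They became 5 with upper quartiles over the tested miRNAs (169 of 354) and 5 with no filter (291 of 1780). The number called also depended on HT29 2D replicate 1. Without that library, the 7 members of the main fit lay between −2.03 (miR-501-5p) and −0.95 (miR-502-3p). All calls were 586 with no filter, 123 with at least 10 CPM in every library and 215 to 271 with a library left out. Without both HT29 replicate 1 libraries, also chosen after seeing the data, the 7 members of the main fit lay between −2.29 (miR-500a-3p) and −0.89 (miR-660-5p). miR-501-3p turned to 0.22 without HT29 2D replicate 2 and to 0.0354 in DESeq2, and was −1.60 without both HT29 replicate 1 libraries. The MIR188 arm difference of −4.89 was −4.35 with 1 count added to each arm and −5.79 to −4.05 with a library left out, and had an exact p of 0.0286 when libraries were exchanged over both cultures. For MIR532 the arm difference of −0.89 was −0.90 with 1 count added to each arm (exact permutation p = 0.0556). It was −1.12 to −0.64 with a library left out, and the exact permutation p over both cultures was 0.0571. MIR500A turned to 0.10 without HT29 2D replicate 1 and 0.11 without HT29 MCS replicate 1 (−0.56 to 0.11 over all libraries left out). Shares of the cluster without the 10 most abundant miRNAs were 0.468% and 0.224% in DLD1 2D and MCS and 0.140% and 0.148% in HT29. The causes of these moves were not tested.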

Other observations

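Some miRNAs outside the locus followed the cluster from library to library. The profile of the cluster was the mean, over the 6 members tested in both lines, of log2(normalized CPM + 1), centred within each line, over 8 libraries that share scaling and depth with every miRNA compared. Among the 250 miRNAs tested in both lines, those outside the locus with the highest Pearson r were miR-641 (0.93), miR-3934-5p (0.92), miR-629-5p (0.91), let-7d-3p (0.90) and miR-1304-3p (0.85). Their fitted differences of MCS minus 2D were −0.42 to −0.19 on the log2 scale in DLD1 and −0.33 to 0.14 in HT29. Of the members themselves, miR-500a-3p (0.94), miR-362-5p (0.93) and miR-502-3p (0.92) lay closest to the profile, which contains them. miR-660-5p lay far from it over all 8 libraries (0.06), with 0.95 over the 4 DLD1 libraries and −0.23 over the 4 HT29 libraries. The HT29 replicate 1 libraries, which stood apart in miR-10a-5p, enter all of these values.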
